A study of Sus scrofa with 3 samples.

Results

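Complement components and regulators were examined in pig mesenchymal stem cells (MSC), stromal cells cultured from fat of adult animals. The set was given as 9 gene names, C1R, C1S, C3, CFB, CFD, CFI, CD46, CD59 and SERPING1, and its members are the rows of the deposited table that carry one of these names. Of the 9 names, 3 (C3, CFD and SERPING1) were found among the 30477 entries, which are thus the members. A further 4 genes of the same list could be tied to entries that carry no name. CFB and CFI were tied through their Ensembl IDs, and CD46 and CD59 through the position of the RefSeq gene on the same assembly. No entry lies over the RefSeq positions of C1R and C1S on chromosome 5, so both were not analysed here. Values of the 4 entries are given beside those of the members and are marked as entries at these loci.

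RNA-seq libraries of total RNA were made from 3 cultures, called 1, 2 and 3 after their labels. The cells were kept in advanced MEM with human platelet lysate, and no treatment, genotype, sex or age of the animals is given beyond adult pigs. All 3 cultures form a single group, so levels and their spread between cultures could be measured but no condition compared. The study concerns transplanted MSC and venous stenosis of the arteriovenous fistula, the vascular access for hemodialysis. Each culture has a number and a code of its own in the labels, which do not say whether these stand for different pigs, and p-values measure only the spread between these samples, which may be technical.

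Complement is a set of proteins that tag cells and microbes for clearance and can end in a pore through the target membrane. The classical and lectin pathways start from bound recognition molecules and their serine proteases, and the alternative pathway amplifies what has been started. All of them converge on cleavage of C3. Soluble and membrane-bound regulators hold the cascade in check on the body's own cells. The liver makes most of the circulating components, while stromal cells, macrophages and adipocytes are known as local sources.

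Values are in RPKM, that is, reads per kilobase of each gene model after scaling to the total counted over the genes of the table. The libraries held 51788677, 62248183 and 64774044 such reads. For a gene model of 2 kb without a read, the upper limit of 3 reads corresponds to 0.029, 0.0241 and 0.0232 RPKM in cultures 1, 2 and 3. The library of culture 1 stood apart in composition, with 28.3% of its reads over small non-coding RNA genes against 9.12% and 8.36% in cultures 2 and 3. The share of protein-coding genes was 70.3%, 88.6% and 88.8%, so that RPKM of culture 1 are lower by construction than on a scale of protein-coding reads alone. All 10 stromal markers listed, such as COL3A1 (4353 ± 449 RPKM, SD, n = 3), lay above 1 RPKM in limma, a linear model with a moderated test fitted to all genes. Most lists of markers of other cell types were low, with 0 of 8 lymphocyte, 0 of 9 hepatocyte, 0 of 4 epithelial and 0 of 8 adipocyte markers above 1 RPKM. Of protein-coding genes with a read, 42% were called above 1 RPKM and 47.8% below. Of 8 endothelial markers 1 was above, PECAM1 (1.92 ± 0.910 RPKM), which overlaps the abundant DDX5. Of 10 macrophage markers 1 was above, CD14 (2.12 ± 0.289 RPKM), 8 were below, and TYROBP (1.15 ± 0.163) was not decided. Of 6 neutrophil markers 0 were above, 3 were below and 3 S100 genes were not decided, of which S100A8 and S100A12 had 12.7 and 18.6 RPKM in culture 1.

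CD59 and CD46, regulators that protect the cell surface, had the highest levels among the 7 entries of the set, followed by SERPING1, CFD and C3, while CFI and CFB were low. All 3 members lay above 1 RPKM in limma's test (adjusted p = 0.04 for C3, 2.4e-08 for CFD and 2.5e-10 for SERPING1). Of all 29479 genes with a read, 30.6% were called above 1 RPKM, and of protein-coding genes 42%. With the 4 unnamed entries, 5 of 7 were called above and 2 below, against 60.8% of all genes and 47.8% of protein-coding genes called below. The median level of the 3 members was 5.67 RPKM, and that of the 7 entries was the same, beside 0.128 RPKM over all genes with a read and 0.795 over protein-coding ones.

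**Figure D1:**
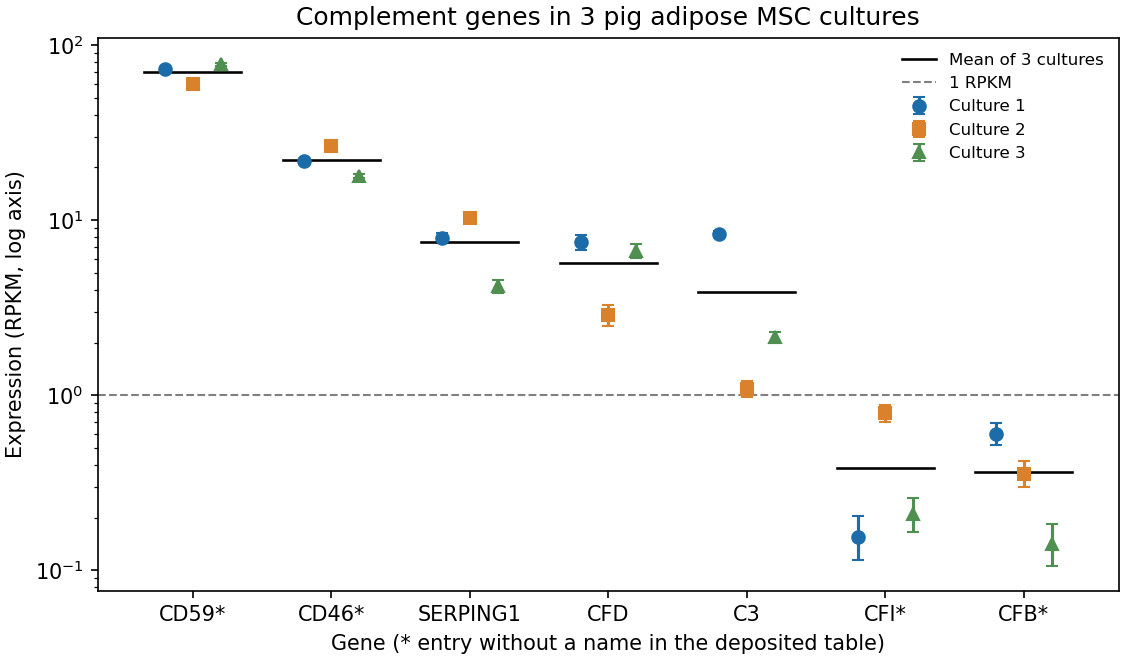
Expression in RPKM (log axis) of the 3 members and of the 4 entries without a name in the table (marked with an asterisk), with 1 symbol per culture, 95% Poisson intervals of the reads as error bars and the mean as a line. CD59 lies at 60.1 to 77.5 RPKM in all cultures, C3 runs from 1.09 to 8.36, and CFI and CFB stay below 1 RPKM.

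C3 (ENSSSCG00000013551, susScr11 chromosome 2, 72431499 to 72528112) is the central component, whose cleavage products coat the target and join the convertases. It had 8.36 RPKM in culture 1, 1.09 in culture 2 and 2.15 in culture 3. Culture 1 was thus high and the others low, and the highest value was 7.70-fold the lowest. The Poisson intervals of the reads did not overlap between any of the cultures, with 8.02 to 8.72, 0.976 to 1.205 and 1.996 to 2.31 RPKM (95%, counting error only). The mean was 3.87 ± 3.93 RPKM (SD, n = 3). On the log2(RPKM + 0.5) scale it lay 1.15 above the reference of 1 RPKM, with a standard error of 0.45.

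The call of C3 above 1 RPKM was lost in 5 of 11 alternatives, among them the fit without culture 1. Without that culture the level was 0.45 above the reference on the log2(RPKM + 0.5) scale (limma, adjusted p = 0.10). Over all alternatives the adjusted p of C3 ran from 1.6e-06 to 0.18. The listed gene model of C3 ends 56490 bases beyond the RefSeq gene and spans TNFSF14, which was listed with 14, 11 and 3 reads in cultures 1, 2 and 3. How reads shared by both were counted is not known here.

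The spread of C3 between cultures was a log2 SD of 1.27, where genes of like level had 0.35. The F test for a spread above that of genes of like level, from limma's prior variance, gave an unadjusted p of 0.013 and an adjusted p of 0.66. Among 10474 genes averaging 1 RPKM or more, 0% passed this test after adjustment and 5.93% had an unadjusted p under 0.05. Of these genes 258 (2.46%) had a log2 SD at least as large as C3, and 131 of the 258 were also highest in culture 1, where 22.3% of all 10474 genes had their highest value. Without culture 3 the spread of C3 passed the threshold (adjusted p = 0.031), with a log2 SD of 1.76 over the other two cultures.

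Culture 1 remained highest for C3 and culture 2 lowest under each of 3 other scalings. The range was 8.70-fold with TMM factors, 9.11-fold with median-of-ratios size factors and 9.70-fold when scaled to protein-coding reads. C3 ranked at percentile 83.2 of protein-coding genes in culture 1, 52.3 in culture 2 and 61.6 in culture 3, a measure that does not depend on scaling.

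CFD (ENSSSCG00000013418, chromosome 2, 77509795 to 77511974) encodes factor D, also known as adipsin, the serine protease that cleaves factor B in the alternative pathway. It had 7.47, 2.87 and 6.69 RPKM in cultures 1, 2 and 3 (5.67 ± 2.46, SD, n = 3). Culture 2 was the low one, and cultures 1 and 3 lay close together, with overlapping Poisson intervals of 6.77 to 8.21 and 6.10 to 7.32 RPKM. The level was 1.95 ± 0.26 (standard error) above the reference on the log2(RPKM + 0.5) scale, and the call above 1 RPKM held in each of 11 alternatives. Culture 1 was highest as deposited and when scaled to protein-coding reads, while culture 3 was highest with TMM factors and with median-of-ratios size factors. Culture 2 was lowest in all 4 scalings. The log2 SD was 0.68 and did not pass the spread test (adjusted p = 0.94, limma's prior variance).

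The gene body of CFD lies inside that of MED16, a subunit of the Mediator complex, which had 1.38, 2.76 and 2.20 RPKM. It also lies inside the entry of ELANE, a gene of the neutrophil list, which had 2, 5 and 3 reads in cultures 1, 2 and 3. The strand setting of the counting is not given in the sources used here, so reads of these genes cannot be fully told apart. MED16 was highest in culture 2, where CFD was lowest, and the part of MED16 reads in the level of CFD was not tested. Although CFD is best known as an adipocyte product, no adipocyte marker listed lay above 1 RPKM. Of 8 such markers 7 were below, among them ADIPOQ with 0.0402, 0.0376 and 0.00803 RPKM, and PNPLA2 at 1.03 ± 0.182 was not decided. Their summed level was 1.86, 2.07 and 1.90 RPKM, of which PNPLA2 took 1.12, 1.16 and 0.826. The part of adipocytes in the level of CFD was not tested.

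SERPING1 (ENSSSCG00000013181, chromosome 2, 13324158 to 13338663) encodes C1 inhibitor, the serpin that blocks C1r, C1s and proteases of the lectin pathway. It had 7.93, 10.3 and 4.19 RPKM in cultures 1, 2 and 3 (7.48 ± 3.08, SD, n = 3). Culture 2 was highest and culture 3 lowest, and the same order held in all 4 scalings, with a range of 1.78-fold to 2.46-fold. The level was 2.33 ± 0.25 (standard error) above the reference on the log2(RPKM + 0.5) scale, and the call held in each of 11 alternatives. Its log2 SD of 0.62 did not pass the spread test (adjusted p = 0.96, limma's prior variance). No other entry of the table overlaps the gene body.

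**Figure D2:**
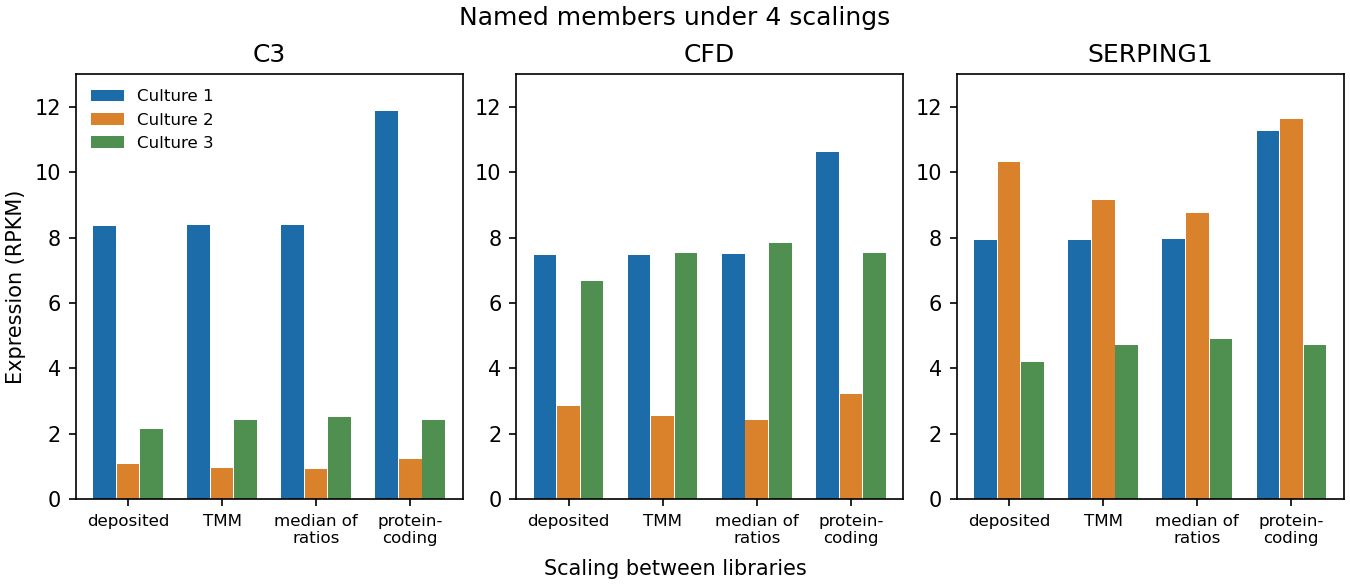
Expression in RPKM of C3, CFD and SERPING1 in each culture (bars, 1 value per culture) as deposited and under 3 other scalings. Culture 1 is the highest bar for C3 and culture 3 the lowest for SERPING1 in every scaling, while the highest bar for CFD changes between cultures 1 and 3.

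The members did not keep 1 order of level. SERPING1 stood at 0.948, 9.50 and 1.95 times the C3 level within the libraries of cultures 1, 2 and 3. It stood at 1.06, 3.60 and 0.627 times the CFD level. These ratios within a library do not depend on how libraries are scaled. The ranges of the 3 members overlapped, so their order by mean (SERPING1, CFD, C3) was not larger than the spread between cultures. The steps from CD59 to CD46 and from CD46 to SERPING1, by contrast, had no overlap between the values of neighbouring genes. The same was true of the step from C3 to CFI, while the values of CFI and CFB overlapped.

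The entry at the CD59 locus (ENSSSCG00000024791, chromosome 2, 27186673 to 27207233) was the highest of the 7. CD59 is a membrane-anchored protein that stops the terminal pore from forming. It had 72.9, 60.1 and 77.5 RPKM (70.2 ± 9.01, SD, n = 3), with culture 2 lowest, and ranged 1.29-fold as deposited. The range depended on scaling: TMM gave 1.64-fold, median of ratios 1.78-fold and protein-coding reads 1.53-fold. Culture 2 stayed lowest in each, and culture 1 was highest when scaled to protein-coding reads. The ends of the entry lie 86 and 70 bases inside those of the RefSeq gene. Its level reached percentile 97.3 to 98.2 of protein-coding genes in the 3 cultures.

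The entry at the CD46 locus (ENSSSCG00000038506, chromosome 9, 135025439 to 135078913) came next. CD46 is a membrane cofactor by which factor I inactivates C3b and C4b. It had 21.9, 26.7 and 17.9 RPKM (22.2 ± 4.39, SD, n = 3), a 1.49-fold range as deposited with culture 2 highest. When scaled to protein-coding reads culture 1 was highest instead, and the range was 1.54-fold. TMM gave 1.17-fold and median of ratios 1.08-fold, both narrower than for CD59 under the same scaling. The start is that of the RefSeq gene and the end differs by 3 bases. Per length, CD59 exceeded CD46 3.33-fold, 2.25-fold and 4.32-fold within the libraries of cultures 1, 2 and 3. Both calls above 1 RPKM held in each of 11 alternatives (limma, adjusted p = 2e-19 for CD59 and 2.4e-16 for CD46).

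The entry named CFI by its ID (ENSSSCG00000009138, chromosome 8, 112414322 to 112470848) had 0.155, 0.789 and 0.209 RPKM. CFI is the soluble protease that cleaves C3b and C4b with the help of cofactors such as CD46. Culture 2 was high, with 294 reads against 48 and 81, and the range was 5.10-fold. The mean of 0.384 ± 0.352 RPKM (SD, n = 3) lay below 1 RPKM (limma, adjusted p = 0.00042). The entry starts 16502 bases before the RefSeq gene. It spans an unnamed processed pseudogene, listed with 0, 1 and 1 reads in cultures 1, 2 and 3. Its model length of 5986 bases enters the RPKM, so the call and the ratios to C3 rest on this gene model. The CFI level was 0.0185, 0.726 and 0.0972 times that of C3, so CFI came close to C3 only in culture 2, where C3 was lowest.

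The entry named CFB by its ID (ENSSSCG00000024914, chromosome 7, 24020570 to 24041322) had 0.604, 0.356 and 0.141 RPKM. CFB carries the catalytic part of the alternative pathway convertase. The mean of 0.367 ± 0.232 RPKM (SD, n = 3) lay below 1 RPKM (limma, adjusted p = 0.00033). Culture 1 was highest and culture 3 lowest. The entry starts 13507 bases before the RefSeq gene and shares 13471 bases with the entry of C2 and 4342 bases with that of NELFE, which had 2.82, 3.48 and 2.42 RPKM. Reads listed for CFB may therefore include reads of its neighbours. CFB stood at 0.0722, 0.328 and 0.0658 times the C3 level. CFD, the protease that acts on factor B, exceeded it 12.4-fold, 8.06-fold and 47.3-fold.

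The other genes of the pathway were mostly low. Of 55 genes on a list of complement components, receptors and regulators 43 had an entry, of which 6 (14%) were called above 1 RPKM, 33 (76.7%) below and 4 were not decided. The median of the list was 0.088 RPKM. The list shows fewer genes above and more below than the 30.6% and 60.8% of all genes, and this is a description of these libraries. Over protein-coding genes the shares were 42% above and 47.8% below. The counts by role that follow rest on few genes each and are to be read beside these shares. The 12 genes of the list without a matched entry, such as CR1 and C4B, were not analysed here.

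In the classical pathway 5 of 6 genes were below 1 RPKM and 0 above. The subunits of the recognition molecule C1q, which macrophages are known to make, were near 0. C1QA had 0.0351, 0.0365 and 0.00701 RPKM, and C1QB and C1QC were listed at 0 in culture 3. Culture 3 had the fewest genes with a read, 24503 against 28310 and 28395 in cultures 1 and 2. Differences between cultures at such low values thus cannot be read as particular to C1q. C4A had 0.0948, 0.254 and 0.132 RPKM. C2 had 0.577, 0.567 and 0.183 RPKM, and limma placed it below 1 RPKM (adjusted p = 0.0029), though not when culture 3 was left out (adjusted p = 0.14). C1RL, a relative of C1R beside the C1R locus, was not decided at 0.907 ± 0.174 RPKM.

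In the lectin pathway 2 of 8 genes were above and 6 below. MASP1 (ENSSSCG00000011806, chromosome 13, 124955029 to 125054463), the gene of a serine protease of this pathway, had 50.9, 44.6 and 72.6 RPKM (56.1 ± 14.7, SD, n = 3). Within the libraries the level of the MASP1 gene exceeded that of SERPING1 6.42-fold, 4.33-fold and 17.3-fold, a ratio chosen after the values were seen. The companion protease gene MASP2 had only 0.0950, 0.0840 and 0.123 RPKM, although it overlaps the abundant TARDBP. COLEC12, a scavenger receptor of the collectin family, had 13.7, 52.5 and 20.1 RPKM, with culture 2 highest. The recognition molecules MBL2, FCN1, FCN2, COLEC10 and COLEC11 were all called below 1 RPKM.

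All 6 measured genes of the terminal pathway were below 1 RPKM, at means of 0.0574 to 0.362. C5 had 0.133, 0.0511 and 0.0341 RPKM. C9 was the highest of them, and its gene body overlaps DAB2, which had 18.1 RPKM on average. CFP, or properdin, which stabilises the alternative convertase, had 1.63, 1.72 and 1.52 RPKM in cultures 1, 2 and 3. It lay above 1 RPKM in 3 of 3 cultures, but its call was not reached (limma, adjusted p = 0.058), and it was reached in 8 of 11 alternatives.

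Among the soluble regulators 1 of 6 was above 1 RPKM and 5 below. The 1 above was clusterin (CLU, ENSSSCG00000009668, chromosome 14, 11336590 to 11352475), a secreted chaperone that binds terminal complexes. It had 114, 322 and 453 RPKM (297 ± 171, SD, n = 3), with culture 1 lowest and a range of 3.96-fold. VTN, which also binds terminal complexes, had 0.411, 0.455 and 0.438 RPKM. CLU exceeded CD59 1.57-fold, 5.35-fold and 5.85-fold within the libraries, again a ratio chosen after the values were seen.

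The remaining membrane regulators were low, with 4 of 5 below 1 RPKM and 0 above. CD55, which speeds the decay of convertases, had 1.07, 0.391 and 0.357 RPKM at its locus (ENSSSCG00000015664, chromosome 9, 67933220 to 67960372). Culture 1 was highest. Limma placed CD55 below 1 RPKM (adjusted p = 0.045), but 7 of 11 alternatives did not, including those that leave out culture 2 (adjusted p = 0.31) or culture 3 (adjusted p = 0.32). CD46 exceeded CD55 20.6-fold, 68.2-fold and 50.3-fold. SUSD4 had 1.89, 2.04 and 0.764 RPKM and was not decided.

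Of 7 receptor genes 6 were below 1 RPKM and 1 above. The receptors for the anaphylatoxins C3a and C5a, C3AR1 and C5AR1, were at 0.0645 ± 0.0436 and 0.193 ± 0.101 RPKM (SD, n = 3 each). C5AR2, the second receptor for C5a, had 1.17, 2.62 and 2.26 RPKM and was above 1 RPKM (limma, adjusted p = 0.012). Leaving out culture 2 or culture 3 ended that call, at an adjusted p of 0.16 and 0.11. ITGAM, a subunit of complement receptor 3, had 0.0977, 0.143 and 1.21 RPKM. Limma placed ITGAM below 1 RPKM (adjusted p = 0.0099), which 5 of 11 alternatives ended, leaving out culture 1 (adjusted p = 0.15) and culture 2 (adjusted p = 0.10) among them.

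Among proteins that bind C1q or surfaces tagged by it, 2 of 4 were above and 1 below. CALR, chiefly a chaperone of the endoplasmic reticulum, had 182, 396 and 354 RPKM. C1QBP, chiefly a mitochondrial protein, had 22.3, 22.2 and 12.8 RPKM. PTX3, a secreted pentraxin that binds C1q, ranged from 0.644 in culture 1 to 9.67 in culture 2, with 2.69 in culture 3, and was not decided.

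**Figure D3:**
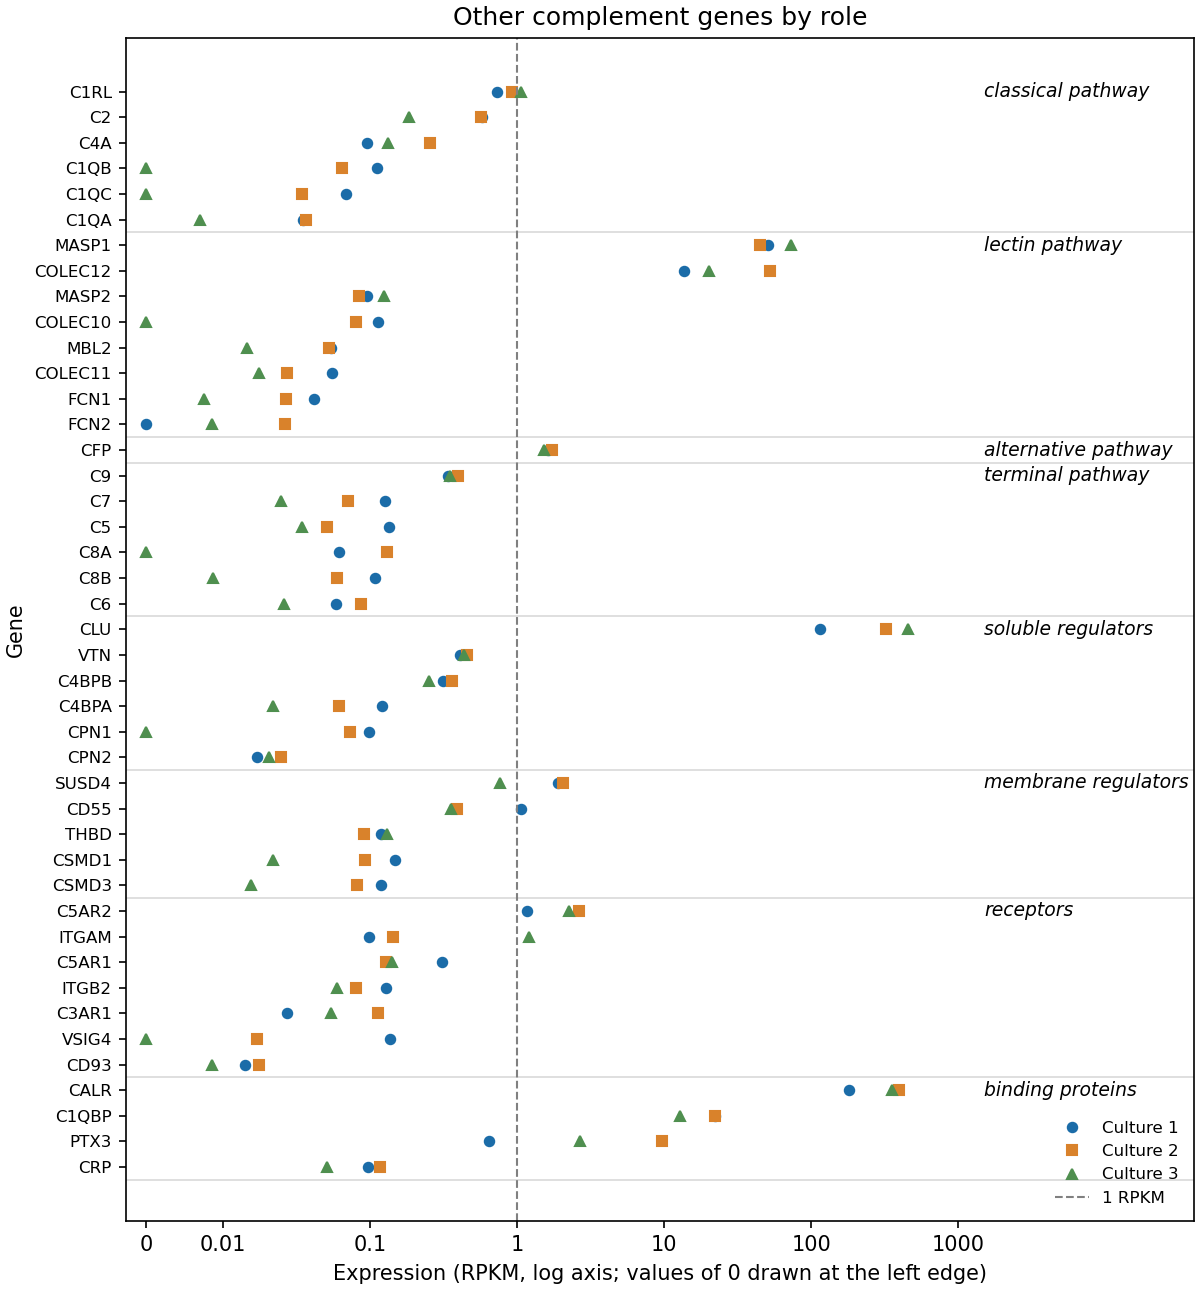
Expression in RPKM (log axis, values of 0 drawn at the left edge) of the 43 other complement genes with an entry, grouped by role, with 1 symbol per culture. CLU, CALR, MASP1, COLEC12 and C1QBP stand above 10 RPKM in every culture, and the 6 genes of the terminal pathway all lie below 1 RPKM.

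Genes listed as upstream of complement genes were mostly expressed, while the cytokines IFNG, IFNB1, TNF and IL1B were called below 1 RPKM. Of 32 cytokines, receptors and transcription factors listed, 25 (78.1%) were above 1 RPKM, 5 (15.6%) below and 2 not decided. Over all genes 30.6% were above and 60.8% below, and over protein-coding genes 42% and 47.8%. The list's median was 15.1 RPKM. IL6, the acute phase cytokine, had 153, 120 and 306 RPKM. Its signalling receptor IL6ST had 44.7, 83.1 and 64.0 RPKM and the kinase JAK1 46.8, 58.3 and 56.4. IL6R, also listed, had 0.814, 0.930 and 0.558 RPKM and was not decided. IL1A had 35.3, 36.6 and 62.4 RPKM, and its receptor IL1R1 44.3, 36.3 and 22.8. TNF and IFNG were at 0.0197 ± 0.0137 and 0.0385 ± 0.0316 RPKM (SD, n = 3 each). IL1B had 0.844, 0.702 and 0.0831 RPKM at its locus, below 1 RPKM in limma (adjusted p = 0.017) but not once culture 3 was left out (adjusted p = 0.51). IL6 was highest in culture 3, where C3 had 2.15 RPKM, and a link between IL6 and C3 was not tested.

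A few listed genes were high in culture 1, as C3 was. CEBPD, a transcription factor of the acute phase response, had 45.0, 13.1 and 12.4 RPKM in cultures 1, 2 and 3. It was singled out after its values were seen, as were the next genes. S100A8 had 12.7, 0.700 and 1.28 RPKM, S100A12 had 18.6, 0.824 and 1.22, and the entry at the S100A9 locus had 2.76, 0.262 and 0.0899. These calcium-binding proteins are abundant in neutrophils and are also made by stressed epithelia. The summed level of the 6 neutrophil markers was 34.2 RPKM in culture 1, 1.94 in culture 2 and 2.66 in culture 3. MPO and CSF3R, also on the neutrophil list, had 0.0472 and 0.0434 RPKM in culture 1, and the leukocyte gene PTPRC had 0.103. The sum of the 10 macrophage markers was 4.14, 3.87 and 3.68 RPKM, of which CD14 took 2.29, 1.78 and 2.28. The 4 epithelial markers, all called below 1 RPKM, summed to 0.856, 0.332 and 0.184 RPKM. Of these, CDH1 took 0.439, 0.0684 and 0.00598, while KRT8 was highest in culture 2, with 0.0727, 0.0870 and 0.00727. In bulk libraries fewer cells of a type and less RNA per cell cannot be told apart. The parts of neutrophils and of epithelial cells in the S100 levels were not tested. The part of S100 genes, CEBPD or small RNA content in the level of C3 was not tested either.

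**Figure D4:**
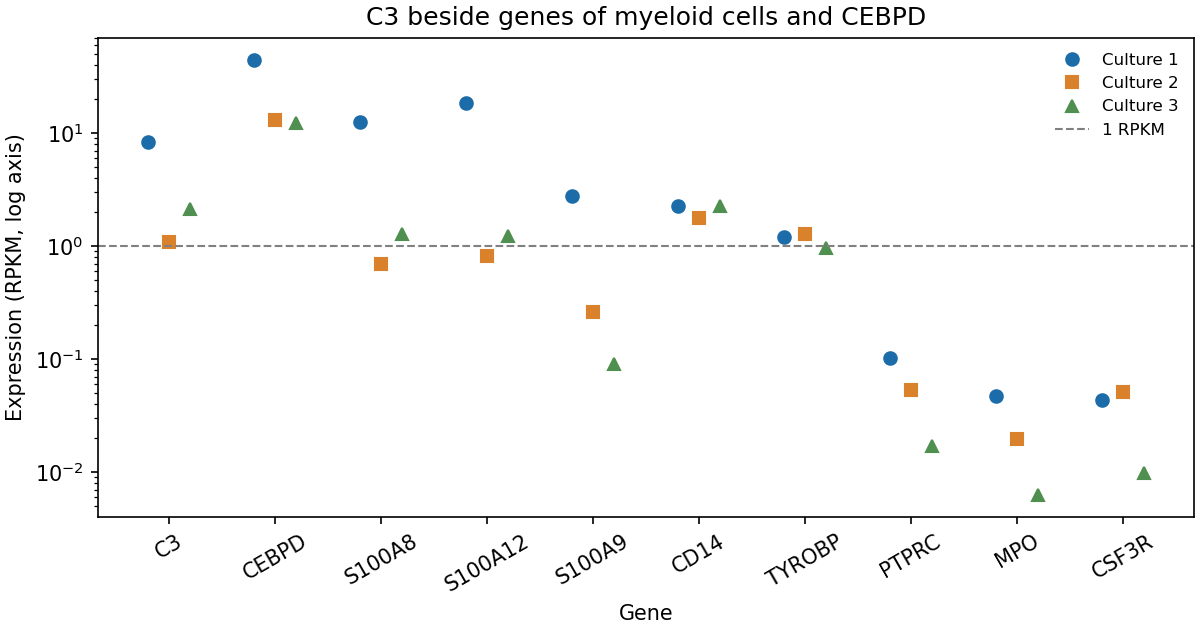
Expression in RPKM (log axis) of C3, CEBPD and genes of myeloid cells, with 1 symbol per culture. C3, CEBPD, S100A8, S100A12 and S100A9 are highest in culture 1, while PTPRC, MPO and CSF3R stay at or below 0.103 RPKM in all cultures.

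By Euclidean distance of log2(RPKM + 0.5) over the 3 cultures, the named entries nearest to C3 were a copy of SNORA70, a small nucleolar RNA (8.87, 1.31 and 1.83 RPKM), and the guidance receptors ROBO2 (7.22, 1.12 and 2.74) and EPHA3 (6.33, 1.03 and 1.89). Their distances were 0.28, 0.35 and 0.41. The nearest to SERPING1 were TCTN1 (8.12, 9.24 and 4.85 RPKM), NDUFA10 (7.20, 9.09 and 4.80) and NT5DC1 (7.75, 10.96 and 5.30), at distances of 0.24, 0.28 and 0.32. With 3 cultures many genes share a pattern, and these names describe likeness of level.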

How the data were processed

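RNA of 3 adipose MSC cultures was measured by RNA-seq with the TruSeq V2 kit, per the labels' protocols. The authors deposited RPKM for 30477 Ensembl genes, per the file headers, and the submitters' processing notes name genome build susScr11. For the aligner, the counter, the annotation release and strand use, the tool or setting is not given in the sources used here. RPKM times the listed gene model length plus 1 base gave whole reads for 100% of values, within 1e-06 of a read. Names were those of the deposited table. Of 14012 entries without one, 785 were named by Ensembl ID and 389 by a RefSeq gene of assembly Sscrofa11.1 (the same assembly) with a reciprocal overlap of at least 0.9. The same match gave the deposited name for 8491 of 8805 named entries.

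The level of each gene, as log2(RPKM + 0.5), was set against 1 RPKM with limma 3.58.1 (R 4.3.3) (trended prior, robust, two-sided) over 29479 genes with a read. The pseudocount of 0.5 RPKM understates differences of low genes. Spread was tested with an F test against limma's prior variance over 10474 genes averaging 1 RPKM or more. Adjusted p-values are Benjamini-Hochberg values over all genes tested, with a threshold of 0.05, and both tests were tested on simulated data. Such p-values borrow the spread of other genes. Intervals are exact Poisson intervals (95%, scipy 1.17.1) and cover counting error only. TMM and median-of-ratios factors were computed from the recovered reads.

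The members and gene lists were chosen with earlier results of these data known, and the grouping by role was made after the values were seen. Named were all members and tied entries, and pathway genes averaging 1 RPKM or more or of key function. Also named were the 5 highest of the upstream genes, and 3 nearest genes each for C3 and SERPING1. The same was planned for C1S, as were ratios with C1R and C1S. Other genes were chosen after their values were seen.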

Additional observations from a re-analysis of the deposited data

How the results depend on the processing

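Of 11 alternatives for the level against 1 RPKM, none changed the calls of CD46, CD59, CFB, CFD, CFI or SERPING1. The call of C3 was lost with a pseudocount of 1 RPKM (limma, adjusted p = 0.16), with no filter (0.072), when scaled to protein-coding reads (0.18), with voom on recovered reads (0.14) and without culture 1 (0.10), with its direction kept throughout. Scaling to protein-coding reads raised log2 RPKM of every gene by 0.51, 0.18 and 0.17 in cultures 1, 2 and 3, and median-of-ratios size factors shifted it by 0.0061, -0.24 and 0.23. The count of entries past the spread threshold was 0 in limma with all cultures and 0 to 1 with a culture left out. CFB and CFI averaged below 1 RPKM and so were not part of these counts. With a filter at a mean of 0.1 RPKM, which both pass, the count was also 0. As a ratio of reads in place of RPKM, CFD to CFB had a mean log2 ratio of 1.62 in place of 4.07, and CD59 to CD46 turned from 1.67 to -0.15. Both follow from the lengths of the gene models, 1098 and 6007 bases for CFD and CFB, and 1809 and 6417 for CD59 and CD46.

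Genes that were not decided turned sign in a few settings, in log2 units relative to 1 RPKM. C1RL turned to 0.086 when scaled to protein-coding reads, PNPLA2 ran from -0.035 to 0.13 with a culture left out, S100A8 from -0.036 to 1.69 and S100A9 from -1.16 to 0.072. The cause was not tested. No paired analysis was possible because the samples form a single group. Ratios with C1R and C1S were not run, since neither has an entry.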
